A study of Mus musculus with 4 samples.

Results

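The genes described here are 39 interferon-stimulated genes of the mouse, measured in liver over 15 weeks of a diet rich in fat and sucrose. A gene was a member when its name in the array files equalled 1 of 39 listed symbols, a rule that itself uses no measured value. The 39 members are 39 of the 34803 gene names on the array, and they were read by 50 probes and 68 spots. They fall into 10 type I-led genes (Ifit1, Ifit2, Ifit3, Oas1a, Oas2, Oas3, Oasl1, Oasl2, Mx1 and Mx2), 10 gamma-led genes (Gbp2, Gbp3, Gbp6, Igtp, Irgm1, Iigp1, Tap1, Tap2, Psmb8 and Psmb9), 5 sensors of nucleic acids, 5 transcription factors and 9 other effectors.

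Livers came from male C57BL/6 mice that were sampled before the high-fat, high-sucrose diet (0 weeks) or after 5, 10 or 15 weeks on it. Feeding began at 5 weeks of age, so the animals were 5, 10, 15 and 20 weeks old, and all groups share the strain, sex, tissue and starting age. Each time point has 1 one-colour array, which the series text sets beside 4 mice per time point without saying whether their RNA was pooled. Time on the diet and age therefore cannot be told apart, no difference between times has a replicate check, and no test was made. In whole liver, more cells of a type and more RNA per cell cannot be told apart either. Hepatocyte markers were bright on every array, with the liver fatty acid-binding protein Fabp1 at log2 levels of 10.13 to 10.56, as the liver label says.

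Interferons are secreted proteins, and cells release those of type I on sensing a virus or misplaced nucleic acid. Type I interferons act through the receptor pair Ifnar1 and Ifnar2 and the kinases Jak1 and Tyk2 to assemble ISGF3, a complex that includes Stat2 and Irf9 and binds the interferon-stimulated response element (ISRE). Interferon gamma, made mainly by T and NK cells, acts through Ifngr1 and Ifngr2 and the kinases Jak1 and Jak2 and leads to binding at the gamma-activated site (GAS). The targets overlap widely, so "type I-led" and "gamma-led" name the interferon each gene is best known to follow, not a source measured here. In liver, Kupffer cells (the resident macrophages), recruited macrophages, endothelial cells and hepatocytes can all respond.

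The stretches upstream of 6 members are shown because each holds at least 1 match of an element, Oas1a and Igtp to both, and because these genes span the patterns described below. Each is the 150 bases before the start site, from RefSeq on GRCm38.p6, written 5′ to 3′ on the gene's own strand, with ISRE and GAS matches in capitals. They lie at chr19:34583379-34583528 (plus strand), chr5:120907526-120907675 (minus strand), chr4:156200819-156200968 (minus strand), chr3:142620513-142620662 (plus strand), chr11:58199406-58199555 (plus strand) and chr11:48871421-48871570 (minus strand), in the order listed.
Ifit3: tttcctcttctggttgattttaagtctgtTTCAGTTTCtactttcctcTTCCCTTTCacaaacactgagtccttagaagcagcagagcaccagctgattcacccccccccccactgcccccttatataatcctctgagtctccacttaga
Oas1a: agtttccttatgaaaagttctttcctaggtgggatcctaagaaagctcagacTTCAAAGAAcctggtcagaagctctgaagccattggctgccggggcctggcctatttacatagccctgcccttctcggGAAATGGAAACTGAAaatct
Isg15: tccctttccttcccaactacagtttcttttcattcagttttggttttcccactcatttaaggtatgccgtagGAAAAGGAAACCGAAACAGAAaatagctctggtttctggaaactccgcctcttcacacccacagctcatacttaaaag
Gbp2: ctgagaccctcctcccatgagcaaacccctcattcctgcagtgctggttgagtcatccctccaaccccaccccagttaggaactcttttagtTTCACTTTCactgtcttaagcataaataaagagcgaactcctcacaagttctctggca
Igtp: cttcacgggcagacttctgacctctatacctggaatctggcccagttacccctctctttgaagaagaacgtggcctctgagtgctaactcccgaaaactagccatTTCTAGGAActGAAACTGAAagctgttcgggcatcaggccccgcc
Irgm1: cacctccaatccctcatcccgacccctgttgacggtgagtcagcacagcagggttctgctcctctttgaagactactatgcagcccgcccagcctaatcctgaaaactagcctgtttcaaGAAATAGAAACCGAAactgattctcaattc

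The ISRE was searched as GAAANNGAA and the GAS as TTCNNNGAA, on both strands, from 250 bases before to 50 bases after each start site. A promoter entry was matched for 28 of the 39 members, and Oas2, Mx1, Mx2, Gbp6, Iigp1, Tap2, Dhx58, Zbp1, Usp18, Rtp4 and Parp14 are named only. An ISRE match lay in 16 of the 28 (57.1%), against 9.76% of all 27025 genes with a promoter of the same length. A GAS match lay in 9 of the 28 (32.1%), against 9.55% of all genes. Of the 28, 21 held at least 1 of the elements and 4 held both, and in 1 promoter, that of Bst2, an ISRE and a GAS match overlapped. The letters did not separate the groups: 4 of 7 type I-led and 4 of 7 gamma-led promoters held an ISRE match, and 2 of 7 in each group held a GAS match. Igtp, a gamma-led gene, carried its GAS match from base −45 and an ISRE match from base −34 relative to the start site. A match is a description of these letters and does not show binding.

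Levels below are log2 values of the background-corrected signal relative to the array's 75th percentile, so 0 is the brightness of that percentile, and where 4 values are given they stand for 0, 5, 10 and 15 weeks in that order. Levels of different probes are not comparable with each other. Measured genes are those whose probe stood well above background on each array of a pair, and a called gene is one whose signal differed at least 2-fold between them. Of the 39 members 38, 38, 38 and 39 were above background, the exception at 0, 5 and 10 weeks being Oas3. Over all genes, 44.5% to 48.3% of spots were well above background, no spot was saturated, and the median SD between repeated spots was 0.0637 to 0.0730, which leaves out any difference between animals. The median over all measured genes was −0.02, −0.01 and −0.25 for the differences of the 5, 10 and 15-week arrays from 0 weeks, and −0.24 for 15 against 10 weeks, so medians of groups are also given relative to it.

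The members stood higher on all 3 diet arrays than at 0 weeks. At 5 weeks 10 of the 38 measured members were at least 2-fold higher and 0 lower, against 2.3% and 1.56% of all measured genes. At 10 weeks 19 of 38 were higher and 0 lower, against 2.92% and 1.53%. At 15 weeks 14 of 38 were higher and 0 lower, against 5.76% and 5.04%. The same shares of all genes stand beside the counts of subgroups and other lists below, where 1 call in a short list can be near them. Relative to the median measured gene, the members' median difference from 0 weeks was 0.70 at 5 weeks, 1.01 at 10 weeks and 1.12 at 15 weeks. All 38 log2 differences were above 0 at 5 and at 10 weeks, and 37 of 38 at 15 weeks, where Ddx58 stood at −0.02. The direction from 0 weeks was the same under every processing alternative for 37 of 38 members at 5 weeks (Oasl1 changed sign), 38 of 38 at 10 weeks and 37 of 38 at 15 weeks (Ddx58 changed sign). The counts moved more. At 5 weeks, 6 members were higher after scaling by the array median and 4 after normexp background correction, and at 15 weeks 23 were higher after scaling by spike-in controls. Whether 10 or 15 weeks had the larger count turned with the setting: the 15-week count exceeded that of 10 weeks with detected probes (21 against 19), quantile normalization (20 against 19), spike-in scaling (23 against 17) and the median measured gene as reference (21 against 19).

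**Figure D1:**
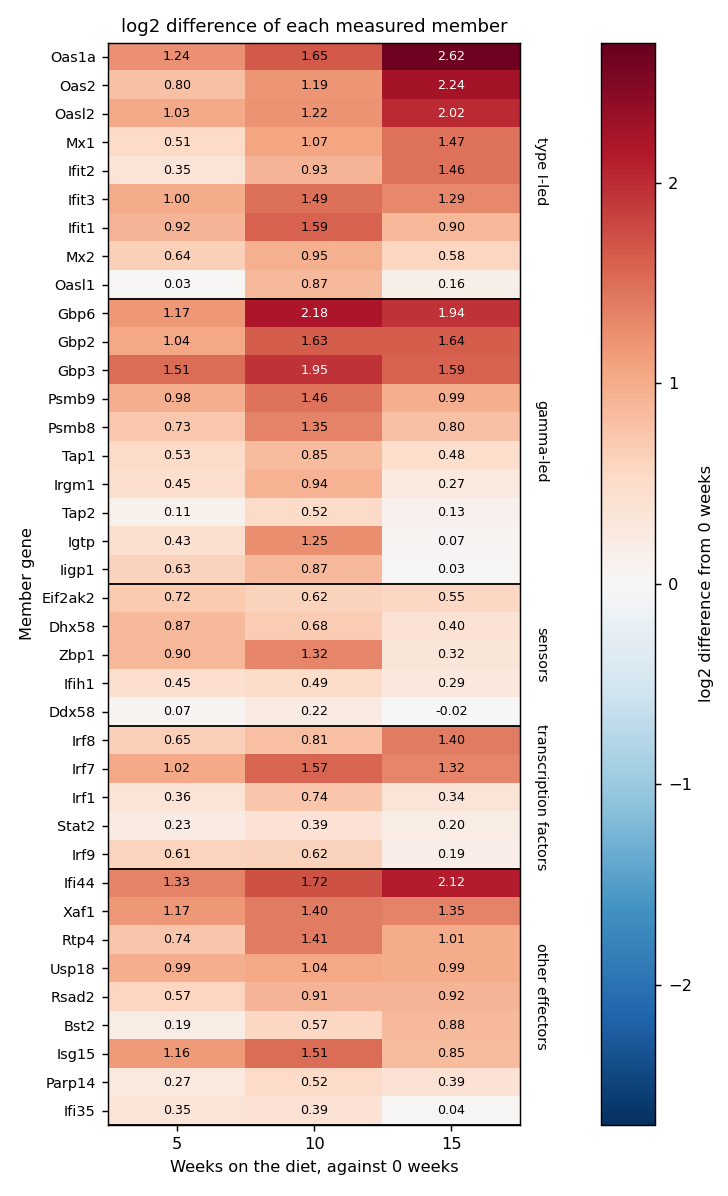
Log2 difference from 0 weeks (colour and printed value) of the 38 members measured on all 4 arrays, one row per gene and one column per time on the diet, 1 array per time point, grouped by role. Nearly every cell is above 0, with Ddx58 at 15 weeks (−0.02) the exception, and the darkest cells are Oas1a, Oas2, Ifi44 and Oasl2 at 15 weeks and Gbp6 at 10 weeks.

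The 4 arrays order most members the same way at the bottom and differently at the top. Among the 38 members above background on all arrays, 37 were lowest at 0 weeks, against 16.6% of all genes so measured, Ddx58 being the exception. The highest array was that of 10 weeks for 26 members, against 26.9% of all genes, and that of 15 weeks for 10 members, against 17%. Of the gamma-led genes 9 of 10 were highest at 10 weeks. Of the type I-led genes 4 of 9 were highest at 10 weeks and 5 of 9 at 15 weeks. Dhx58 and Eif2ak2 were highest at 5 weeks. Which array is highest depends on the scaling. With spike-in controls 7 members were highest at 10 weeks and 30 at 15 weeks, and of the gamma-led genes 3 of 10 (Igtp, Irgm1 and Iigp1) stayed highest at 10 weeks, while 9 of 10 did under the other scalings, with normexp and with probe means. Highest arrays named for single genes below are those of the 75th-percentile scaling.

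Among the type I-led genes, 3 of the OAS family had the largest differences at 15 weeks. OAS enzymes make oligoadenylates that activate RNase L, which degrades viral and cellular RNA. Oas1a, read by a probe at chr5:121346735-121346794 (mm9), had levels of 2.25, 3.49, 3.90 and 4.87. It was lowest at 0 weeks and highest at 15 weeks, 2.36-fold higher at 5 weeks, 3.14-fold at 10 weeks and 6.13-fold at 15 weeks, at percentile 99.6 of all measured differences. A second Oas1a probe gave a log2 difference of 2.62 at 15 weeks, the same to 2 decimals as the first. Oas2 had levels of −0.35, 0.45, 0.84 and 1.89 and was 1.74-fold, 2.28-fold and 4.73-fold above 0 weeks. Oasl2, an OAS-like protein, had levels of −0.09, 0.94, 1.13 and 1.93 and was 2.04-fold, 2.32-fold and 4.04-fold above 0 weeks. These 3 genes share one order over the arrays, each level higher than the one before.

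Oas3 was not well above background at 0, 5 and 10 weeks and reached −2.31 at 15 weeks. It was at least 2.42-fold higher at 15 weeks than at 0 weeks and at least 2.15-fold higher than at 10 weeks. Oasl1, an OAS-like protein without synthase activity that in mouse restrains the translation of Irf7, took another course, with levels of 4.02, 4.05, 4.89 and 4.18. It was within 2-fold at all times, with differences from 0 weeks of 0.03, 0.87 and 0.16. So the 5 family members did not move alike: 3 of the 4 measured ones were at least 2-fold higher at 15 weeks and Oasl1 was not. Near-identical Oas1 copies can share signal, so the value of Oas1a alone is uncertain.

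The IFIT genes, whose proteins bind foreign RNA and block its translation, lie side by side on chromosome 19. Ifit1 had levels of −0.57, 0.35, 1.02 and 0.34, highest at 10 weeks, where it was 3.0-fold above 0 weeks, and 1.87-fold above at 15 weeks. Ifit3 was also highest at 10 weeks, with levels of 1.42, 2.42, 2.91 and 2.72 and folds of 2.0, 2.80 and 2.45. Ifit2, the dimmest of the 3 probes, had levels of −2.47, −2.12, −1.54 and −1.01. Its highest array was that of 15 weeks, 2.75-fold above 0 weeks, and its difference fell from 1.46 to 0.68 on the log2 scale when background was corrected with normexp.

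The MX proteins are dynamin-like GTPases that trap viral nucleocapsids, and in most inbred strains, C57BL/6 among them, Mx1 carries a deletion that removes the functional protein. Mx1 transcript had levels of −1.65, −1.13, −0.58 and −0.17 and was 1.43-fold, 2.10-fold and 2.77-fold above 0 weeks. With normexp its difference at 15 weeks was 0.88 in place of 1.47. Mx2 had levels of 0.81, 1.45, 1.76 and 1.39, highest at 10 weeks and within 2-fold at all 3 times. On the 10-week array 20% of the spots within 3 rows and columns of that of Mx2 were at least 2-fold brighter than on the other arrays, and Mx2 was left out in 1 of the alternatives for that reason.

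As a group, 3 of the 9 measured type I-led genes were at least 2-fold higher at 5 weeks, 6 of 9 at 10 weeks and 6 of 9 at 15 weeks. Their median differences from 0 weeks were 0.80, 1.19 and 1.46, or 0.82, 1.20 and 1.71 relative to the median measured gene. The spread at 15 weeks was wide, from 0.16 for Oasl1 to 2.62 for Oas1a. By family, the medians at 15 weeks were 2.13 for OAS, 1.29 for IFIT and 1.02 for MX, or 2.38, 1.54 and 1.28 relative to the median measured gene. At 10 weeks the IFIT median (1.49) was above that of OAS (1.20).

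**Figure D2:**
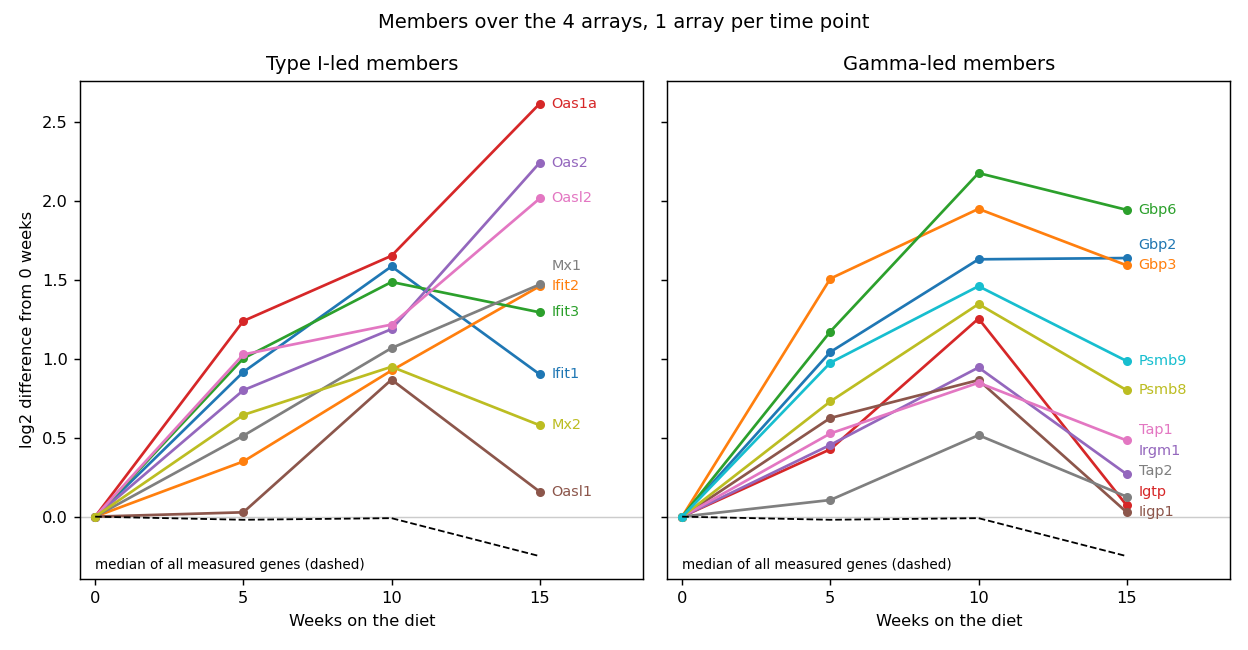
Log2 difference from 0 weeks (vertical axis) against weeks on the diet (horizontal axis) for the 9 measured type I-led genes and the 10 gamma-led genes, 1 array per time point and so no error bars; the dashed line is the median of all measured genes. Oas1a, Oas2 and Oasl2 end at 2.62, 2.24 and 2.02, while Igtp and Iigp1 end at 0.07 and 0.03 after 1.25 and 0.87 at 10 weeks.

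The 3 gamma-led guanylate-binding proteins, GTPases that attack vacuoles holding bacteria or parasites, were at least 2-fold higher at all 3 diet times. Scaled by the array median, Gbp2 was within 2-fold at 5 weeks, with a log2 difference of 0.98. Gbp3 had levels of −0.07, 1.43, 1.87 and 1.52 and was 2.84-fold, 3.86-fold and 3.01-fold above 0 weeks. Gbp6 had levels of −0.69, 0.49, 1.49 and 1.26 and folds of 2.25, 4.52 and 3.85. Gbp2 had levels of −0.10, 0.94, 1.53 and 1.54 and folds of 2.06, 3.1 and 3.11. For all 3, the arrays of 10 and 15 weeks lay above that of 5 weeks and well above that of 0 weeks. The 15-week and 5-week levels of Gbp3 were close (1.52 and 1.43). Other GBP genes, outside the members, did not all move this way. Gbp4, Gbp5 and Gbp10 were within 2-fold at all times, with differences at 15 weeks of 0.83, 0.02 and 0.51. Gbp7 was at least 2-fold higher at 5 and 10 weeks (2.01-fold and 2.80-fold) but not at 15 weeks. Gbp9 was so at 10 and 15 weeks (2.14-fold and 2.61-fold). GBP genes resemble each other closely, and signal can be shared between their probes.

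The immunity-related GTPases, which guard and lyse the same vacuoles, were highest at 10 weeks and within 2-fold of 0 weeks at 15 weeks. Igtp, read by 10 spots of a probe at chr11:58020927-58020986 (mm9), had levels of 4.11, 4.54, 5.37 and 4.18, with an SD between its spots of 0.0396 to 0.0522. It was 2.39-fold above 0 weeks at 10 weeks and 1.05-fold at 15 weeks, so that the 15-week array was 2.27-fold below the 10-week array. Irgm1, a regulator of the other GTPases and of autophagy, had levels of 3.58, 4.03, 4.52 and 3.85. Iigp1, an effector that coats the parasite vacuole, had levels of 4.37, 4.99, 5.23 and 4.40. Second probes of Irgm1 and Iigp1 gave differences from 0 weeks at 15 weeks within 0.105 and 0.021 of those of the first. For each of the 3 the array of 15 weeks lay below that of 10 weeks under every alternative.

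The remaining gamma-led genes make and carry peptides for MHC class I molecules, and they lie together on chromosome 17, between bases 34319174 and 34353175 in mm9 as the probes mark them. Psmb9 and Psmb8 are the catalytic subunits that replace their standard counterparts in the immunoproteasome. Psmb9 had levels of 3.59, 4.57, 5.05 and 4.58 and was 1.97-fold, 2.75-fold and 1.98-fold above 0 weeks. Psmb8 had levels of 3.07, 3.80, 4.42 and 3.87 and folds of 1.66, 2.54 and 1.74. Both passed 2-fold at 10 weeks, and at 15 weeks they stood at 1.05 (Psmb8) and 1.24 (Psmb9) on the log2 scale relative to the median measured gene, past 2-fold by that reference. Tap1 and Tap2, which together form the peptide transporter, were within 2-fold at all times, with levels of 0.33, 0.85, 1.17 and 0.81 for Tap1 and 3.96, 4.06, 4.47 and 4.08 for Tap2. The 10-week array was the highest for all 4 of these neighbouring genes, except with spike-in scaling, where that of 15 weeks was.

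As a group, 3 of the 10 gamma-led genes were at least 2-fold higher at 5 weeks, 6 of 10 at 10 weeks and 3 of 10 at 15 weeks, the last being the 3 GBP genes. Their median differences from 0 weeks were 0.68, 1.30 and 0.64, or 0.70, 1.31 and 0.89 relative to the median measured gene. At 15 weeks the family medians were 1.64 for GBP, 0.89 for the immunoproteasome, 0.30 for TAP and 0.07 for the immunity-related GTPases, or 1.89, 1.14, 0.55 and 0.32 relative to the median measured gene.

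Set side by side, the medians of the 2 groups were close at 5 and 10 weeks and apart at 15 weeks. The type I-led median exceeded the gamma-led median by 0.12 at 5 weeks, lay 0.11 below it at 10 weeks (a gap of −0.11), and exceeded it by 0.82 at 15 weeks. Single genes overlapped throughout: at 15 weeks the gamma-led Gbp6, at 1.94, stood above 6 of the 9 type I-led genes, and the type I-led Oasl1, at 0.16, stood among the immunity-related GTPases and Tap2. The size of the 15-week gap depended on the background correction. It was 0.24 with normexp, where the type I-led median fell to 0.88 with the values of the dim probes of Ifit2 and Mx1, and 0.66 to 0.94 under the other alternatives that moved it. Oas1a, by contrast, had a difference of 2.62 with normexp too. The gap at 10 weeks had the opposite sign, 0.076, when the probes of a gene were averaged. None of these gaps has a replicate check.

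From 5 to 10 weeks the differences were small. Gbp6 alone was at least 2-fold higher, at 2.01-fold (1 of 38 members, against 0.958% of all genes), 0 were lower (against 1.13%), and under 7 alternatives it too was within 2-fold. The members' median was 0.38, with 36 of 38 above 0, and the type I-led and gamma-led medians were 0.48 and 0.49. Dhx58 and Eif2ak2 were the members with a level at 10 weeks below that at 5 weeks.

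From 10 to 15 weeks the members parted. Oas2 was at least 2-fold higher at 15 weeks (2.08-fold; 1 of 38, against 3.94% of all genes), and Igtp (2.27-fold) and Zbp1 (2.01-fold) were at least 2-fold lower (2 of 38, against 4.06%), shares close to those of all genes. With detected probes, quantile normalization, spike-in scaling or the median-gene reference 0 members were at least 2-fold lower, and with the array median, normexp or probe means 1 was. The type I-led median was 0.40 and the gamma-led median −0.43, or 0.64 and −0.19 relative to the median measured gene. Of the type I-led genes 5 of 9 were above 0 and of the gamma-led genes 1 of 10, Gbp2 at 0.01. The gap of 0.84 between the medians was 0.67 with quantile normalization and 0.58 with normexp, and above 0 in both.

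The direction of many single genes over this interval rests on how the arrays are scaled. With spike-in controls as the reference the median of all genes was 0.35, the type I-led median 0.99 and the gamma-led median 0.16, so the gamma-led group then stood above 0. Under all alternatives 10 members were higher at 15 weeks: Oas1a, Oas2, Oasl2, Ifit2, Mx1, Gbp2, Irf8, Rsad2, Ifi44 and Bst2. Under all alternatives 7 were lower: Igtp, Irgm1, Iigp1, Ifit1, Oasl1, Zbp1 and Isg15. The other 21 changed sign with the scaling. Each fixed set therefore holds genes of both groups, with 5 type I-led genes and 1 gamma-led gene on the higher side, and 2 type I-led and 3 gamma-led genes on the lower side.

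**Figure D3:**
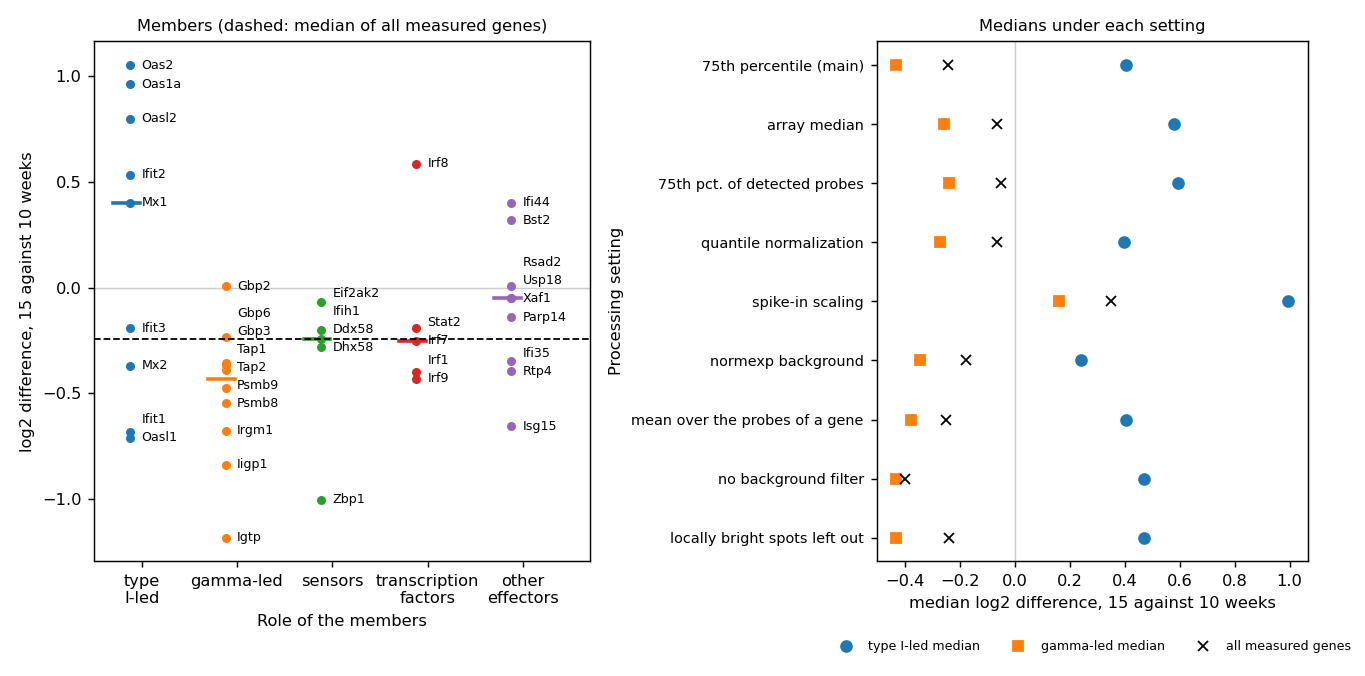
Left, log2 difference of each measured member between 15 and 10 weeks by role, 1 array per time point, with short bars for group medians and a dashed line for the median of all measured genes (−0.24). Right, the type I-led, gamma-led and all-gene medians of the same comparison under each processing setting: the type I-led median stays to the right of the gamma-led median in every row, while the gamma-led median crosses 0 with spike-in scaling (0.16).

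The sensors had smaller medians than the type I-led genes at all 3 times, with 0 of 5 at least 2-fold higher at 5 weeks, 1 at 10 weeks and 0 at 15 weeks, and medians of 0.72, 0.62 and 0.32. Zbp1, a receptor for Z-form nucleic acid that can trigger necroptosis, had levels of 2.08, 2.98, 3.40 and 2.40 and was 2.50-fold above 0 weeks at 10 weeks. Its second probe had levels of −1.11, 0.91, 1.10 and 0.34, the same order of arrays but differences from 0 weeks of 2.03, 2.22 and 1.45, so the size of the Zbp1 difference is uncertain, the probes differing by 1.13 at 15 weeks. Zbp1 was the exception: of 8 members with 2 measured probes, the other 7 had probes within 0.23 of each other at 15 weeks. Dhx58, a helicase that modulates the RIG-I-like receptors, had levels of 0.79, 1.66, 1.48 and 1.19. Eif2ak2, the RNA-activated kinase PKR that halts translation, had levels of −0.45, 0.27, 0.17 and 0.10. Both were highest at 5 weeks and within 2-fold throughout.

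Ifih1, the sensor MDA5 of long double-stranded RNA, had levels of 2.47, 2.92, 2.95 and 2.75, within 2-fold at all times. Ddx58, the sensor RIG-I of RNA ends, had levels of 3.24, 3.31, 3.47 and 3.22. Its largest difference from 0 weeks was 0.22, the smallest maximum among the 38 measured members, and its second probe gave 0.27 for the same comparison.

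Among the transcription factors Irf7, which amplifies interferon alpha production, had the largest difference at 10 weeks. Its levels were 1.52, 2.54, 3.09 and 2.84, and it was 2.02-fold, 2.97-fold and 2.49-fold above 0 weeks. Irf8, a factor of the macrophage and dendritic cell lineages, had levels of 1.21, 1.86, 2.02 and 2.61, highest at 15 weeks at 2.63-fold. Irf1, a first responder to interferon gamma, had levels of 3.37, 3.73, 4.11 and 3.71 and stayed within 2-fold. The partners of ISGF3 also stayed within 2-fold, with Irf9 at 3.94, 4.55, 4.56 and 4.13 and Stat2 at 3.04, 3.27, 3.43 and 3.24. So 1, 1 and 2 of the 5 factors were at least 2-fold higher at 5, 10 and 15 weeks.

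Among the other effectors 3, 5 and 3 of 9 were at least 2-fold higher at 5, 10 and 15 weeks, with medians of 0.74, 1.04 and 0.92. Ifi44, an interferon-induced cytoplasmic protein, had levels of −1.86, −0.53, −0.14 and 0.26 and was 2.52-fold, 3.29-fold and 4.34-fold above 0 weeks, in the same order of arrays as Oas1a. Xaf1, an antagonist of the apoptosis inhibitor XIAP, had levels of 0.88, 2.04, 2.28 and 2.23 and folds of 2.24, 2.64 and 2.55. Isg15, a ubiquitin-like protein, had levels of 4.38, 5.54, 5.89 and 5.23 and was 2.23-fold, 2.84-fold and 1.80-fold above 0 weeks, so its 15-week array lay below those of 5 and 10 weeks. Usp18, the protease that removes Isg15 from proteins and damps the type I receptor, had levels of 2.99, 3.97, 4.03 and 3.98, flat over the 3 diet arrays and close to 2-fold above 0 weeks on each (1.98-fold, 2.06-fold and 1.99-fold).

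Rtp4, a chaperone of certain receptors, had levels of 3.50, 4.24, 4.90 and 4.51 and was 2.65-fold above 0 weeks at 10 weeks. Rsad2 (viperin), which makes a chain-terminating nucleotide, had levels of 1.87, 2.45, 2.78 and 2.79, and Bst2 (tetherin), which holds budding virus at the membrane, had 6.64, 6.84, 7.21 and 7.53. Both were within 2-fold and highest at 15 weeks. Parp14, an ADP-ribosyltransferase, and Ifi35 had the smallest differences of the group, at most 0.52 and 0.39.

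The interferon genes themselves mostly did not stand well above background. Ifng, Ifnb1, Ifna2, Ifna4, Ifna5 and Ifna11 were not well above background on any array, and Ifnl2 is not analysed here. Ifna1 was dim, with levels of −3.1, −3.19 and −3.56 at 0, 5 and 15 weeks and not well above background at 10 weeks, and Ifnl3 had levels of −2.31, −2.46, −1.69 and −2.25. Of 13 ligands and inducing cytokines listed, 2 or 3 were measured in a comparison with 0 weeks and 0 were called.

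Of 8 receptor and kinase genes measured at 15 weeks, 1 was at least 2-fold higher and 0 lower, near the shares of all genes (5.76% and 5.04%). Ifnar1 had levels of 2.82, 2.81, 2.74 and 2.19 and Ifnar2 5.43, 5.45, 5.39 and 4.77, both lowest at 15 weeks and within 2-fold. Ifngr1 had levels of 2.97, 2.93, 3.12 and 3.28 and Ifngr2 2.95, 2.95, 3.13 and 3.20, with differences from 0 weeks at 15 weeks of 0.31 and 0.25. The called gene was Il10rb, a chain shared by the interferon lambda and interleukin 10 receptors, at −0.49, −0.29, −0.10 and 0.54. Ifnlr1, the other lambda chain, was well above background at 15 weeks alone.

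Of 6 negative regulators, 2 were higher at 10 weeks and 1 at 15 weeks, against 2.92% and 5.76% of all genes. The one at 15 weeks was Socs1, an inhibitor of the JAK kinases that both interferons induce, with levels of −2.16, −1.44, −0.94 and −0.82. Of 9 measured genes of nucleic acid sensing upstream of interferon, 2 were higher and 1 lower at 15 weeks, against 5.76% and 5.04%. Sting1 (named Tmem173 on the array), the adaptor for cytosolic DNA, had levels of 0.50, 1.03, 0.98 and 1.88, and Cgas (Mb21d1), the DNA sensor before it, −2.01, −1.42, −1.49 and −0.68. Both differed most at 15 weeks, by 1.37 and 1.33. The lower gene was Trim25, a ubiquitin ligase known to activate RIG-I, with levels of 9.62, 9.62, 9.34 and 7.71 and a difference of −1.91.

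Interferon targets outside the 39 genes were read from 2 further lists. The shares of all measured genes at least 2-fold higher were 2.3%, 2.92% and 5.76% at 5, 10 and 15 weeks. Of 21 measured further type I-induced genes, 2, 6 and 8 were at least 2-fold higher at 5, 10 and 15 weeks and 0 lower, with medians of 0.59, 0.68 and 0.77. The largest differences at 15 weeks were those of Ifi27l2a (2.57), Slfn8 (2.05), Trim30a (1.94) and Phf11b (1.93). Of 18 measured further gamma-induced genes, 1, 6 and 4 were higher and 0 lower, with medians of 0.38, 0.61 and 0.37. There the largest were the chemokines Cxcl10 (2.06) and Cxcl9 (1.65), which draw T cells through Cxcr3, followed by Gbp9 (1.38) and the GTPase Tgtp2 (1.27). From 10 to 15 weeks the medians of these lists were 0.21 and −0.26, or 0.45 and −0.02 relative to the median measured gene.

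Markers of other cells moved over the same arrays, and their part in the values above was not tested. All 17 macrophage markers were above background on every array, their summed signal was 191, 343, 422 and 507 times the array's 75th percentile, and 5, 13 and 13 of 17 were at least 2-fold higher at 5, 10 and 15 weeks. Their medians of 0.92, 1.18 and 1.53 were of the size of the type I-led medians, and from 10 to 15 weeks their median was 0.45. The markers did not all move alike. Not called at 15 weeks were Csf1r (0.90), Vsig4 (0.86), Clec4f (0.58) and Timd4 (−0.98), the last 3 of them below their 10-week levels. Of 15 T and NK cell markers 8, 10, 10 and 12 were above background, and their summed signal was 44.5, 52.8, 48.6 and 27.4, most of it from the probe of Cd4. Of the 8 measured, 0, 3 and 1 were at least 2-fold higher at 5, 10 and 15 weeks, and at 15 weeks Cd4 was lower. The medians of these 8 were 0.22, 0.71 and 0.71, or 0.24, 0.72 and 0.96 relative to the median measured gene. Cd3g is not among the 8, as it was not well above background at 0 weeks. It was at least 2.14-fold, 3.21-fold and 2.98-fold higher at 5, 10 and 15 weeks, with dim levels of −2.49, −1.90 and −2.01. The granule protease gene Gzma had levels of −0.56, −0.32, 1.62 and 0.43, highest at 10 weeks, and Gzmb was above background at 10 and 15 weeks alone (−1.31 and −2.99). Cd2, the gene called higher at 15 weeks, was instead highest there, with dim levels of −3.46, −2.98, −2.15 and −1.90. Lck was too, with levels of −0.95, −0.80, −0.36 and 0.01. From 10 to 15 weeks 8 of 10 measured markers were below 0, with a median of −0.26, or −0.02 relative to the median measured gene. Cd8a, Ncr1 and Klrk1 were not well above background on any array.

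Of 4 measured markers of plasmacytoid dendritic cells, known as strong producers of type I interferon, 0, 0 and 1 were higher at 5, 10 and 15 weeks and 1 lower at 5 weeks. The defining marker Siglech had levels of 5.36, 5.43, 5.22 and 5.46, and the called gene, Ly6d, is not confined to these cells. Ccr9, not well above background at 0 weeks, was dim at 5, 10 and 15 weeks (−2.97, −2.89 and −2.51). It was at least 1.53-fold, 1.62-fold and 2.11-fold higher there than at 0 weeks. The list's summed signal was 74.5, 64.6, 65.1 and 159, and Runx2 was not well above background on any array. Most of the rise in that sum at 15 weeks came from the probe of Ly6d, with levels of 4.42, 3.16, 3.91 and 6.71. Of 4 measured neutrophil markers 2 were higher at each time, S100a8 and S100a9, and Mmp8 was not well above background on any array. Their medians were 0.68, 1.36 and 1.14, or 0.70, 1.37 and 1.39 relative to the median measured gene. The summed signals of the whole list were 47.3, 52.1, 51.4 and 49.6, most of them from the probe of Csf3r, with levels of 5.49, 5.58, 5.42 and 5.37. Of 4 measured B cell markers 0 were called at any time, with summed signals of 1.21 to 1.74 and Ms4a1 above background at 15 weeks alone.

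All 8 markers of sinusoidal endothelium were above background and 0 were called at any time, with summed signals of 79.8 to 110. Of 8 stellate cell markers, all above background, 3 were higher at 15 weeks, and 1 (Des) and 2 (Des and Col1a1) were lower at 5 and 10 weeks, with summed signals of 146, 185, 143 and 257. All 13 hepatocyte markers measured had differences below 0 at 15 weeks, 2 of them at least 2-fold (Cps1 and Tat; Cps1 at 10 weeks too), with a median of −0.63, or −0.38 relative to the median measured gene (12466 of 17576 measured genes were below 0 there), and summed signals of 12539, 11445, 12400 and 8280.

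**Figure D4:**
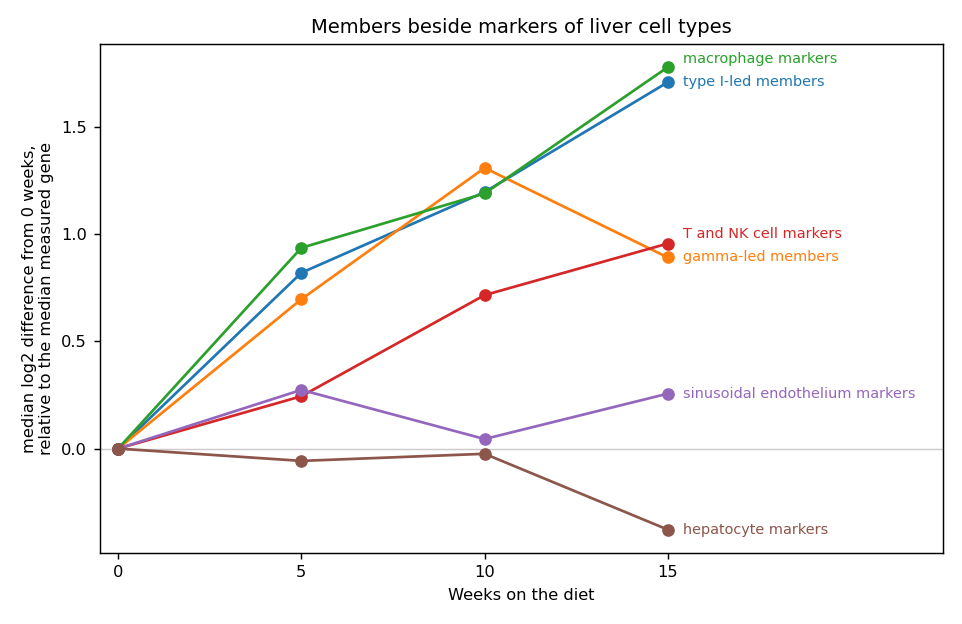
Median log2 difference from 0 weeks, after subtracting the median measured gene (vertical axis), against weeks on the diet for the type I-led and gamma-led members and for markers of 4 liver cell types, 1 array per time point. The macrophage markers lie beside the type I-led members at every time (1.78 and 1.71 at 15 weeks), while the gamma-led members are higher at 10 weeks (1.31) than at 15 weeks (0.89). Neutrophil and stellate cell markers, not drawn, had values of 1.39 and 1.14 at 15 weeks.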

How the data were processed

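Total RNA of mouse liver, 1 sample per time on the diet (1 mouse or a pool, not given in the sources used here), was amplified, labelled with Cy3 and read on 1-colour Agilent arrays, per the labels' protocols. Groups follow the diet weeks in the sample titles. Per the file headers, Agilent Feature Extraction 10.7.3.1 gave each spot a processed signal, an intensity on a linear scale with background subtracted by the authors' software. The authors also deposited a value table, whose intensity values are the processed signal over the median non-control spot of the array, so its linear scale is known, genes are not centred and each column's median is 1.

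Control spots and flagged spots (uneven, outlier) were dropped, replicate spots were averaged, and a gene took its brightest probe by mean level. Values are log2 of the processed signal minus the 75th percentile of that array. Measured means well above background on both arrays, and called means at least 2-fold. Bounds ("at least N-fold") use the dim probe's value or, if higher, the lowest probe well above background on that array (−3.59, −3.44, −3.58 and −4.11). With 1 array per group no test was made and the number of arrays limits the precision.

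Alternatives were the array median, the 75th percentile of detected probes, quantile normalization, spike-in controls, normexp with offset 50 (limma 3.58.1), the mean over probes, no background filter, the deposited table, leaving out spots with bright neighbours, and the median measured gene as the reference of the 2-fold threshold. The calculation was tested on simulated data (Python 3.11.15). All 39 members could be named. Of other pathway genes, interferons and receptors were named, and up to 4 per list with the largest called difference at 15 weeks, while some listed genes are not reported here. Marker genes were named where a defining marker was absent, or where a gene led its list, carried its summed signal or moved unlike it. The members and lists were chosen with earlier results of these data known. Probe positions are those of the files (mm9). Promoters are from RefSeq (GRCm38.p6), matched by symbol, and probe sequences are not shown.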

Additional observations from a re-analysis of the deposited data

How the results depend on the processing

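Over 20 results and 10 alternatives, 190 values were computed and 154 were labelled the same. That label allowed shifts in size and, for values near 0, changes of sign. With quantile normalization the gap between 5 and 10 weeks went from −0.003 to 0.025. With normexp the members' relative median between 10 and 15 weeks went from −0.005 to 0.018. The main count of members at least 2-fold higher at 5 weeks was 10 (6 with the array median, 4 with normexp). At 15 weeks it was 14, against 20 with quantile normalization and 21 with detected probes or the median-gene reference. Spike-in scaling gave 23 there. The 1 member higher from 5 to 10 weeks became 0 with the array median, detected probes, quantile, spike-in, normexp, probe means and the median-gene reference. From 10 to 15 weeks the 1 higher member became 2 with the array median, detected probes, quantile or no filter, 3 with the median-gene reference and 5 with spike-in scaling; the 2 lower members became 1 with the array median, normexp or probe means and 0 with detected probes, quantile, spike-in or the median-gene reference. The members' relative median moved to 0.87 at 10 weeks and 0.97 at 15 weeks with normexp, and without the filter to 1.30 at 15 weeks and from −0.01 to 0.16 between 10 and 15 weeks. The type I-led minus gamma-led gap moved at 5 weeks from 0.12 to 0.018 (normexp) and 0.23 (probe means), at 10 weeks from −0.11 to −0.30 (normexp) and, reversed, 0.076 (probe means), at 15 weeks from 0.82 to 0.66 (quantile), 0.24 (normexp) and 0.94 (probe means), and between 10 and 15 weeks from 0.84 to 0.67 (quantile) and 0.58 (normexp). The cause was not tested. The deposited table gave the same values, being the processed signal on another scale. The array median, detected-probe and spike-in scalings shift all genes of an array alike. Relative medians and gaps could therefore not change under them, and their label there was fixed in advance. No paired analysis was possible because each group has 1 array and no replicate could be left out. Signal over background limits Oas3 and the interferon genes, for which bounds or no values are given.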
